A study of Mus musculus with 6 samples.

Results

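The 41 genes described here encode the cytosolic and mitochondrial protein-folding machinery of the mouse and the 2 transcription factors most closely tied to it. They were taken by name from the deposited gene table as HSP70, HSP110, HSP90, HSP60, DNAJ, BAG, CCT and cochaperone genes plus Hsf1 and Hsf2, with a mean of at least 10 counts over the 6 libraries. All 41 were found among the 55536 genes of the table, and all 41 were among the 14318 genes that passed the filter on low counts and were tested. Their mean counts ran from 243 for Hspa1a to 65513 for Hspa8.

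The libraries were made from lymph node T cells of OT-I mice, used as primary cells, with the genotype labelled wildtype. The OT-I receptor is a transgene that directs CD8 T cells to an ovalbumin peptide. Cells of both groups were kept in RPMI 1640 medium with fetal bovine serum, 2-mercaptoethanol and non-essential amino acids, and received either the solvent DMSO or DSF, which the series title gives as disulfiram, for 2 h. There were 3 libraries per group, labelled as biological replicates, and the labels used here give no dose of DSF, no age of the animals and no statement of whether the receptor was stimulated.

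Heat shock proteins of the HSP70 family bind exposed hydrophobic stretches of unfolded proteins in a cycle driven by ATP. DNAJ proteins deliver clients and start ATP hydrolysis, and nucleotide exchange factors such as the HSP110 and BAG proteins reset the cycle. HSP90 and its cochaperones take over later folding steps of kinases and steroid receptors, the CCT ring folds actin and tubulin, and HSPD1 with HSPE1 forms the folding chamber of the mitochondrial matrix. The transcription factor HSF1 is held inactive in unstressed cells and, once released by misfolded proteins or thiol-reactive compounds, binds heat shock elements, which are inverted repeats of the unit GAA, in front of genes such as Hspa1a, Hspa1b, Dnajb1 and Hsph1.

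Library totals ran from 18082264 to 21893720 estimated counts. Library numbers are those of the table's columns, which are not tied to the numbers of the labelled replicates. Summed over marker lists, in CPM (counts scaled to library size with TMM factors), T cell genes stood at 2110 to 2150 with DMSO and 1910 to 1980 with DSF, with 3 of 7 lower. The sums were 24.8 to 28.4 and 30.8 to 34.5 for CD4 T cell genes (1 of 3 higher), 246 to 259 and 230 to 244 for B cell genes (1 of 6 lower), and 45.1 to 46.7 and 35.6 to 38.6 for myeloid and dendritic genes (2 of 7 lower). They were 266 to 278 and 275 to 283 for natural killer cell genes and 32.5 to 36.1 and 30.9 to 35.9 for stromal, endothelial and erythroid genes, with 0 called in both lists. Single genes made up most of some sums. Nkg7, at 263 to 279 CPM, held most of the natural killer sum, with Ncr1 at most 0.222 CPM. Pecam1 (29.8 to 34.4 CPM) held most of the stromal sum. Zbtb7b (23.5 to 32.4 CPM) held most of the CD4 sum, with Cd4 at 1.15 to 1.88 CPM. Foxp3, Ncr1, Pdgfra, Cdh5 and Hbb-bs did not pass the filter and were not tested. No gene of these lists was at 0 in all libraries, and the part of other cells in the results was not tested. In such bulk libraries fewer cells of a type and less RNA per cell cannot be told apart.

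Most chaperone genes moved little after 2 h of DSF. Hsf2 rose to 2.05 times its DMSO level, while the classical inducible genes Hspa1a and Hspa1b were at 1.01 and 1.02 times theirs and did not pass the test. The genes of the mitochondrial folding chamber, Hspd1 and Hspe1, fell to 0.841 and 0.903 times the DMSO level, and 3 of the 8 CCT subunits also fell. Dnajb1, Dnajb4 and Hspa4l rose to between 1.16 and 1.18 times.

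Of the 41 members, 4 were higher with DSF at an adjusted p under 0.05 in edgeR's quasi-likelihood test, or 9.76%, against 11.6% of all genes tested. Another 11 were lower, or 26.8%, against 11.3% of all genes tested. All members had at least 10 CPM, and among the 8997 tested genes at that level 14.7% were higher and 15.5% lower. That floor does not match the members in level. Their DMSO means ran from 12.2 CPM (Hspa1a, SE of the log2 fold change 0.09) to 3353 CPM (Hspa8, SE 0.03). Smaller changes can be called where the SE is smaller, and no share was taken among genes of matched level. The count of lower members was 7 without DSF library 2. The remaining 26 members were not called, and the 95% interval of each of their fold changes lay within 0.865 to 1.17.

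The libraries of the groups did not overlap for 18 members, or 43.9%, against 35.4% of all genes tested. Of these 18, 4 were higher and 14 lower with DSF, and 4 did not pass the test (Trap1, Chordc1, Hspa8 and Cdc37). Bag1 passed it although its groups overlapped. The log2 fold change was negative for 30 members and positive for 11, with a median of -0.04, beside a median of -0.003 over all genes tested. The share of negative values over all genes tested was not counted. Some uncalled members changed sign when 1 library was left out, from negative (such as Cct4, Hsp90aa1 and Bag3) or from positive (such as Hspa1a, Hspa1b and Hsp90ab1). Among the 15 called members the median size of the log2 fold change was 0.18.

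**Figure D1:**
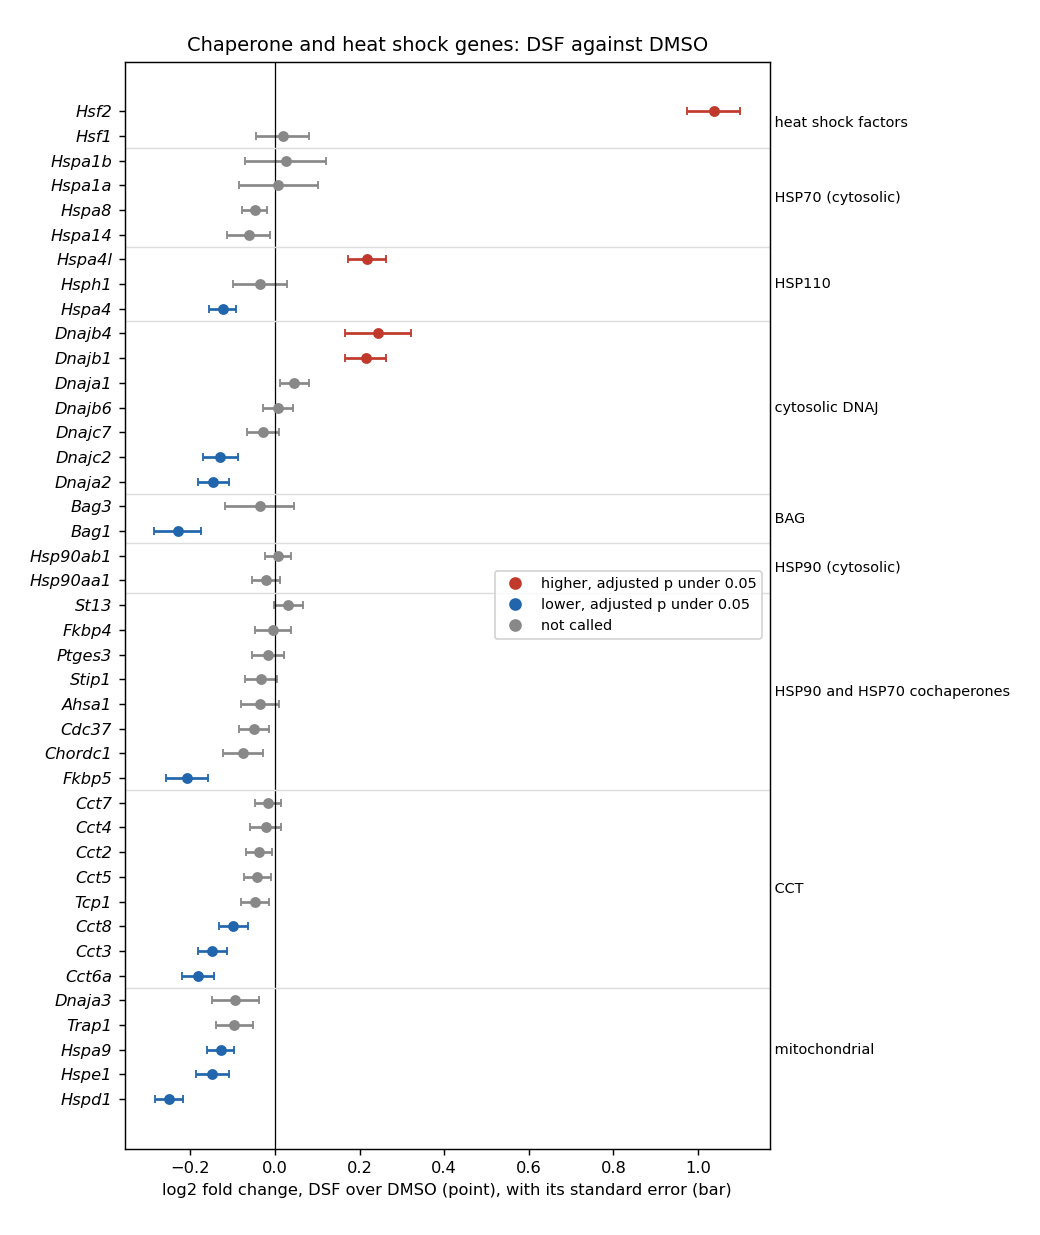
Fold change of all 41 members, as log2 of DSF over DMSO with the standard error as bars, grouped by family. Hsf2 stands at 1.04 and every other member lies between -0.25 and 0.24.

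Hsf2, a heat shock factor best known from development and from complexes with HSF1, was read at 22.4, 20.9 and 22.4 CPM in DMSO libraries 1, 2 and 3 and at 47.4, 42.4 and 44.9 CPM in DSF libraries 1, 2 and 3. Every DSF library lay far above every DMSO library. The log2 fold change was 1.04 ± 0.06 (SE), a fold of 2.05 with a 95% interval of 1.88 to 2.24, at an adjusted p of 2.26e-14 in edgeR's quasi-likelihood test.

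Hsf1, the main stress-responsive factor, was at 36.5, 35.4 and 36.4 CPM with DMSO and at 33.03, 39.97 and 36.5 CPM with DSF. Its groups overlapped and its fold change was 1.01 with an interval of 0.927 to 1.11 (adjusted p = 0.881). TPM is a level scaled to transcript length, which allows genes to be compared, and is used here only as the authors' mean of each group, without an SD. On that scale the Hsf2 level was 0.461 times the Hsf1 level with DMSO and 0.901 times with DSF. Summed CPM of both factors was 58.9, 56.3 and 58.8 with DMSO against 80.5, 82.3 and 81.4 with DSF. HSF1 itself is controlled mainly at the protein level, so its transcript level is no measure of its activity.

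Hsf2 lies on the plus strand of chromosome 10, and the 250 bases before its start are printed because it is the member with the largest change. They are RefSeq sequence of build GRCm38.p6, chr10:57486135-57486384, all in lower case because no inverted pair of heat shock units (GAANNTTC or TTCNNGAA, each its own reverse complement, so that both strands are read at once, and free to overlap each other) was found in them. The stretch also overlaps an annotated exon of 4930467K11Rik.
Hsf2: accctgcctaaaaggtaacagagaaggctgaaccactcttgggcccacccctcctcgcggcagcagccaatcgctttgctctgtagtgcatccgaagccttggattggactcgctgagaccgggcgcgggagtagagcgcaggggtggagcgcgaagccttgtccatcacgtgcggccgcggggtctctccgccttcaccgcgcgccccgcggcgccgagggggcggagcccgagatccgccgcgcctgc

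**Figure D2:**
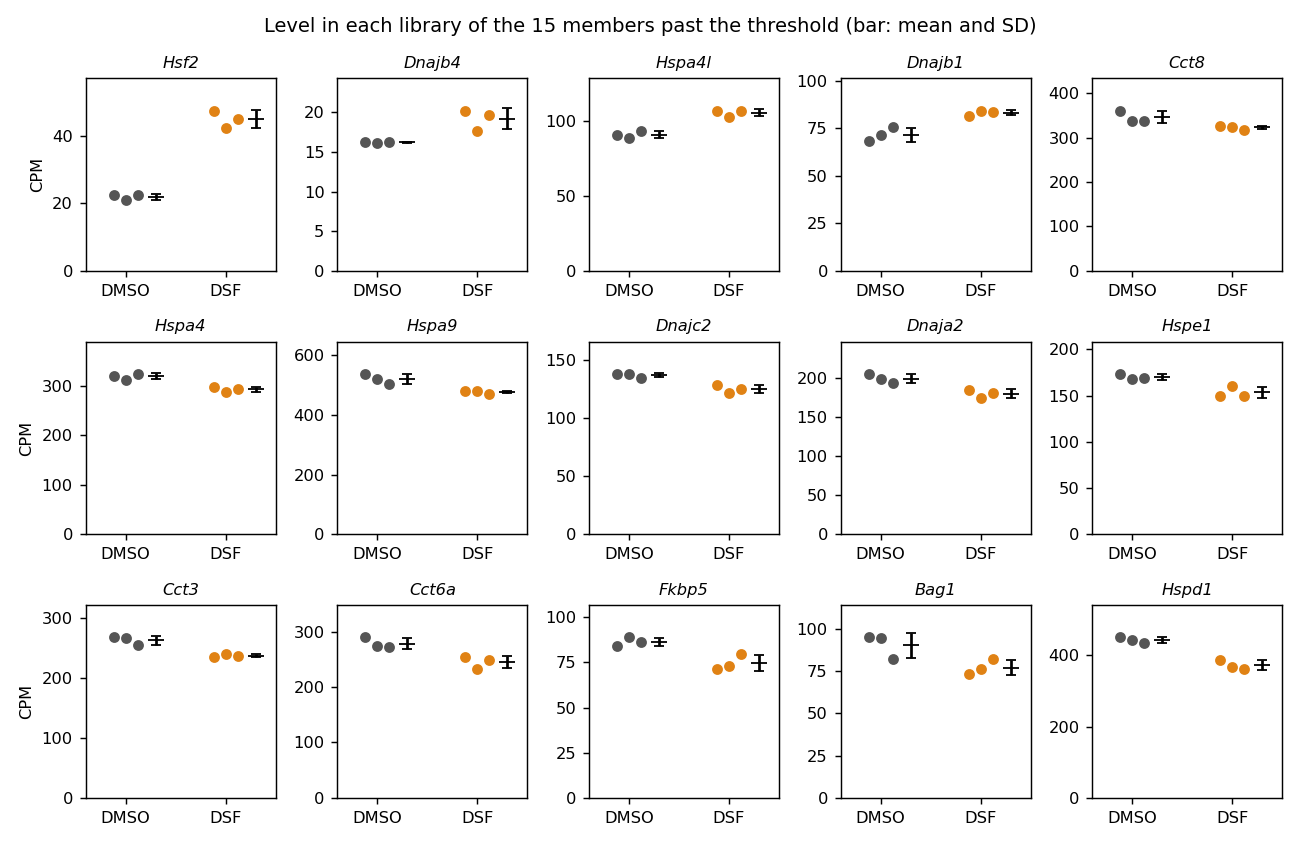
Level of the 15 called members in each library, in CPM on axes that start at 0, with the group mean and SD as a bar beside the points. Hsf2 separates by about its whole DMSO level, while the other members shift by a small part of theirs and Bag1 overlaps between groups.

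None of the 4 cytosolic HSP70 genes was called. Hspa1a, which encodes the strongly heat-inducible HSP70, stood at 12.2, 11.5 and 13.0 CPM with DMSO and at 12.2, 12.5 and 12.1 CPM with DSF. Its neighbour Hspa1b, which encodes a nearly identical protein, stood at 14.3, 16.5 and 18.6 CPM and at 14.7, 16.8 and 18.7 CPM. The groups overlapped for both genes, with 95% intervals of the fold change of 0.881 to 1.15 for Hspa1a (adjusted p = 0.967) and 0.888 to 1.17 for Hspa1b (adjusted p = 0.891). An increase above 1.17 times thus lies outside both intervals.

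The transcripts of the pair share 63.8% (Hspa1a) and 67.5% (Hspa1b) of their 31-base words with each other, so that counts could be split between them, and Hspa1a also overlaps exons of Gm20481 on the opposite strand. Their promoters are nearly the same too, with 247 of the 250 bases before the start identical. The 88 bases printed hold the inverted pair of heat shock units of each gene, in capitals, on the minus strand at chr17:34972213-34972300 for Hspa1a and chr17:34959295-34959382 for Hspa1b, and are shown because these are the textbook HSF1 targets whose level did not pass the test.
Hspa1a: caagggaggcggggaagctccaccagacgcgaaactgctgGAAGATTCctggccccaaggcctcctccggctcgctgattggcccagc
Hspa1b: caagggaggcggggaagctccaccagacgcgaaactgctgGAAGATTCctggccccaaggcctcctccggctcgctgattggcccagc

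Hspa8, the constitutive HSC70, was the most abundant member at 3339.6, 3321 and 3399 CPM with DMSO and 3169.9, 3268 and 3295 CPM with DSF. All 3 DSF libraries lay below all 3 DMSO libraries, but the fold change of 0.968 (interval 0.928 to 1.01) did not pass the test (adjusted p = 0.292). Its transcript shares 51.7% of its words with the pseudogene Gm15459, which makes its count uncertain. By the authors' mean TPM, the level of Hspa8 was 147 times the summed level of Hspa1a and Hspa1b with DMSO and 141 times with DSF. Hspa14, an HSP70 relative bound to ribosomes, had a fold change of 0.958 (interval 0.89 to 1.03).

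**Figure D3:**
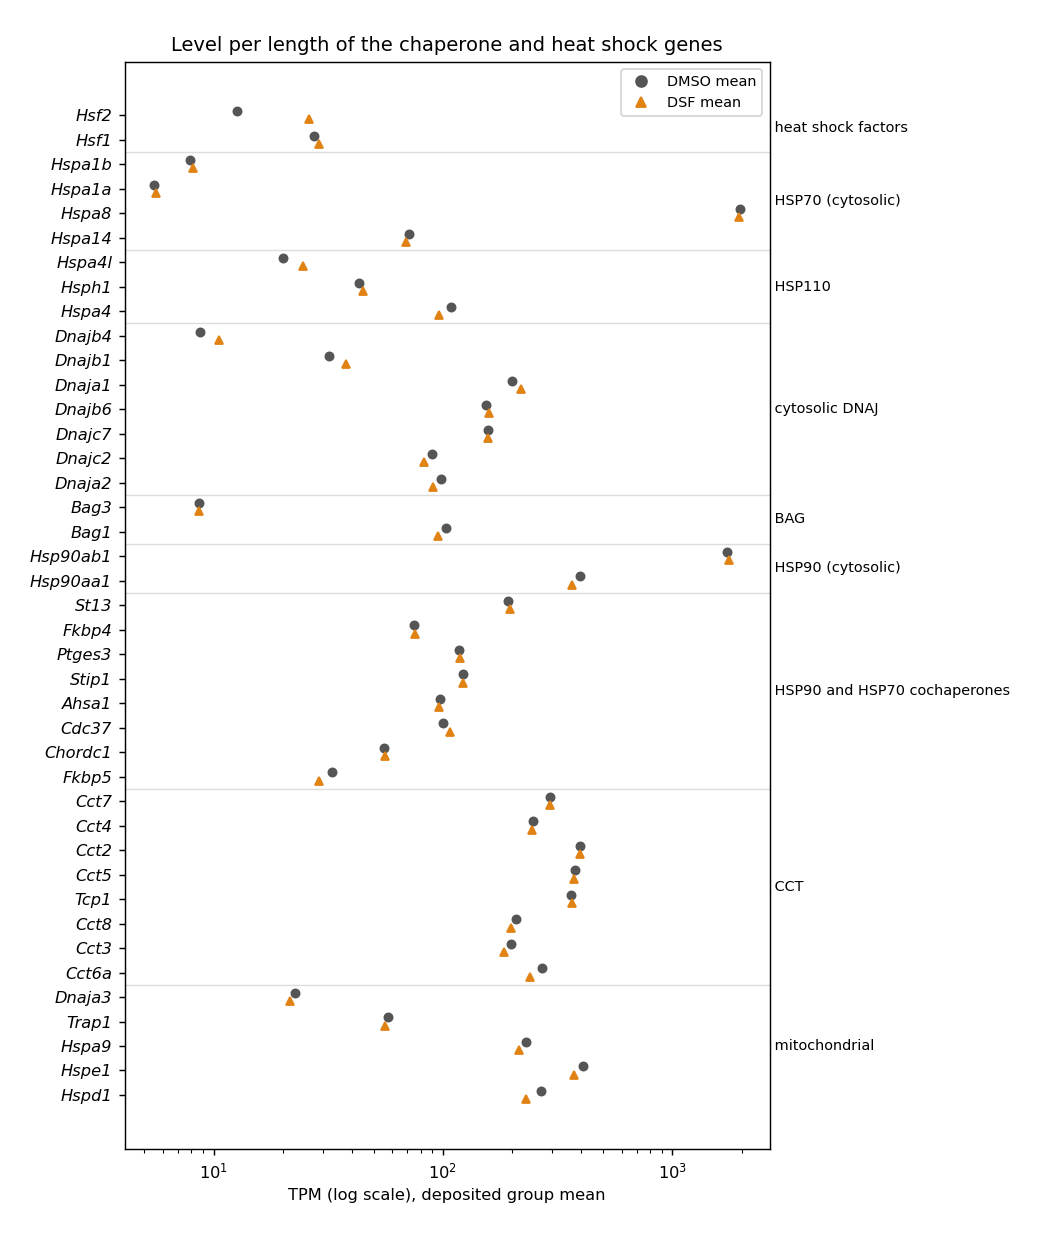
The authors' mean TPM of each member on a log axis, with circles for DMSO and triangles for DSF, grouped by family. With DMSO the levels run from 5.51 TPM for Hspa1a to 1976 TPM for Hspa8, and Hsf2 shows the widest gap between its points.

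The HSP110 genes, whose proteins exchange the nucleotide of HSP70, moved in both directions. Hspa4l rose from 90.2, 88.5 and 93.0 CPM to 106.5, 102.6 and 106.8 CPM, with a log2 fold change of 0.22 ± 0.04 (SE, adjusted p = 0.00036). Hspa4 fell from 320.9, 312.4 and 324.0 CPM to 298.0, 287.6 and 292.9 CPM, with a log2 fold change of -0.12 ± 0.03 (adjusted p = 0.00542, and 0.0637 without DSF library 2). Neither gene's groups overlapped. The Hspa4l level was 0.186 times the Hspa4 level with DMSO and 0.255 times with DSF, by the authors' mean TPM. Hsph1, the stress-inducible member of the family, spread from 86.6 to 106.8 CPM with DMSO and from 89.1 to 96.8 CPM with DSF, and its fold change of 0.976 (interval 0.889 to 1.07) did not pass.

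Of the 7 cytosolic DNAJ genes, 2 rose, 2 fell and 3 were not called. Dnajb1, the main partner of inducible HSP70 and an HSF1 target, rose from 68.1, 71.2 and 75.4 CPM to 81.5, 84.2 and 83.6 CPM. Its groups did not overlap, and the log2 fold change was 0.22 ± 0.05 (SE, adjusted p = 0.00112). Dnajb4, a close relative of it, was at 16.2 CPM in each DMSO library and at 20.2, 17.7 and 19.7 CPM with DSF, also without overlap. Its log2 fold change of 0.24 ± 0.08 had an adjusted p of 0.0218, which was 0.0612 without DMSO library 2, 0.0997 without DSF library 1, 0.0927 without DSF library 3 and 0.128 in DESeq2.

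Dnaja2, a client-delivering cochaperone of HSC70, fell from 204.8, 198.8 and 193.0 CPM to 184.8, 173.8 and 180.8 CPM (log2 fold change -0.15 ± 0.04, adjusted p = 0.00425, and 0.0687 without DSF library 2). Dnajc2, which works with HSPA14 at the ribosome exit, fell from 137.9, 138.3 and 135.2 CPM to 129.0, 121.8 and 125.5 CPM (log2 fold change -0.13 ± 0.04, adjusted p = 0.019). That p was 0.0537 without DMSO library 2, 0.148 without DSF library 2 and 0.0749 without DSF library 3. Both genes were lower in every DSF library than in any DMSO library. The folds of Dnaja1, Dnajb6 and Dnajc7 were 1.03, 1.00 and 0.981.

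Dnajb4 and Dnajb6 hold heat shock letters in a promoter window, and both stretches are printed to set a called beside an uncalled gene. That of Dnajb4 is the 28 bases before a start on the minus strand, chr3:152193846-152193873, with 1 inverted pair in capitals. That of Dnajb6 is chr5:29735852-29735864 on the plus strand, within annotated exons, with 3 alternating units.
Dnajb4: tcgttcgttcgctgTTCTAGAAagtaca
Dnajb6: GAATCTTCCGGAA

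Bag1, a nucleotide exchange factor that links HSP70 to the proteasome, was at 94.9, 94.4 and 81.9 CPM with DMSO and at 73.1, 76.1 and 82.0 CPM with DSF. DMSO library 3 lay just below DSF library 3, and the log2 fold change was -0.23 ± 0.06 (SE, adjusted p = 0.00307). Bag3, the stress-inducible BAG protein of selective autophagy and an HSF1 target, had a fold change of 0.975 with an interval of 0.869 to 1.09.

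Neither cytosolic HSP90 gene was called. Hsp90aa1, the inducible form, was at 815.9, 758.6 and 776.8 CPM with DMSO and 788.0, 756.1 and 772.0 CPM with DSF (adjusted p = 0.71). Hsp90ab1, the constitutive form, was at 3053, 3243 and 3200.2 CPM and at 3131, 3238 and 3172 CPM (adjusted p = 0.914). The groups overlapped for both, and the intervals of the fold change were 0.941 to 1.03 and 0.962 to 1.05. Hsp90aa1 shares 57.0% of its words with the pseudogene Gm12346. Together with Hspa8 these genes held 43.7% of the authors' mean TPM summed over the members with DMSO and 44.2% with DSF.

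Of the 8 cochaperones of HSP90 and HSP70, 1 was called. Fkbp5, an immunophilin of steroid receptor complexes and a glucocorticoid-induced gene, fell from 84.2, 88.8 and 86.1 CPM to 71.5, 72.8 and 79.9 CPM without overlap, with a log2 fold change of -0.21 ± 0.05 (SE, adjusted p = 0.00191). Its relative Fkbp4 was at 0.997 times the DMSO level. The ATPase activator Ahsa1, the HSP70 to HSP90 adaptor Stip1, the kinase-specific cochaperone Cdc37, the p23 gene Ptges3, the HSP70 cofactor St13 and Chordc1 had folds of 0.976, 0.978, 0.966, 0.989, 1.02 and 0.948.

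All 8 CCT subunit genes had a negative log2 fold change, and 3 of them passed the test. The shared sign did not hold in every refit, since Cct4 turned positive (0.0328) without DMSO library 1. Cct6a fell from 289.5, 273.3 and 271.6 CPM to 254.7, 232.9 and 247.9 CPM (log2 fold change -0.18 ± 0.04, adjusted p = 0.000404). Cct3 fell from 267.4, 266.4 and 254.3 CPM to 234.4, 239.8 and 236.8 CPM (-0.15 ± 0.03, adjusted p = 0.00158). Cct8 fell from 360.7, 338.2 and 337.5 CPM to 326.5, 323.6 and 317.8 CPM (-0.10 ± 0.03, adjusted p = 0.0327). The groups of these 3 genes did not overlap.

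The call of Cct8 was lost without DMSO library 1 (adjusted p = 0.14), DSF library 1 (0.0677), DSF library 2 (0.115) or DSF library 3 (0.171). Tcp1, Cct2, Cct4, Cct5 and Cct7 had folds between 0.967 and 0.989 and were not called. The CCT proteins work together in a double ring, and the summed level of their genes with DSF was 0.9753 times the DMSO level by the authors' mean TPM. Cct6a and Cct8 overlap exons of Psph and Usp16 on the opposite strand.

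The 5 mitochondrial members all had a negative log2 fold change, and 3 passed the test. Hspd1, the HSP60 of the folding chamber, fell from 449.6, 442.5 and 433.3 CPM to 387.0, 366.3 and 361.6 CPM, with a log2 fold change of -0.25 ± 0.03 (SE, adjusted p = 6.95e-07). Hspe1, which encodes its lid HSP10, fell from 173.3, 167.6 and 169.1 CPM to 149.9, 160.6 and 149.7 CPM (-0.15 ± 0.04, adjusted p = 0.0051, and 0.0571 without DSF library 3). Hspa9, the matrix HSP70 that also pulls proteins through the import pore, fell from 535.9, 520.2 and 504.0 CPM to 478.9, 478.1 and 470.7 CPM (-0.13 ± 0.03, adjusted p = 0.00329). The groups of the 3 genes did not overlap.

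Trap1, the mitochondrial HSP90, and Dnaja3, a mitochondrial DNAJ protein, were at 0.936 and 0.937 times the DMSO level and were not called. The summed level of the 5 genes was 1304, 1278 and 1249 CPM with DMSO and 1154, 1141 and 1115 CPM with DSF, or 0.8903 times, with no overlap between the groups. By the authors' mean TPM the ratio was 0.9085, the lowest among the families on that scale. The BAG pair, at 0.8712 in CPM and 0.9282 in TPM, was lower in CPM.

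Hspd1 and Hspe1 lie head to head on chromosome 1 and share a promoter, and their annotated exons overlap on opposite strands. The labels and headers do not say whether strand was used in counting, so reads of the overlap cannot be assigned with certainty, and Hspd1 shares 51.8% of its words with the pseudogene Hspd1-ps3. The shared element, printed because both genes fell, is the same 18 bases, chr1:55088059-55088076, read on the plus strand for Hspe1 and on the minus strand for Hspd1, and lies within an annotated exon of Hspd1. The capitals mark heat shock units and the bases between them.
Hspe1: TTCTAGAACCTTCCGGAA
Hspd1: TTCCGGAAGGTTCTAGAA

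RefSeq promoter windows, from 250 bases before to 50 after a start, were at hand for 33 members, some with several starts, giving 43 windows. The 8 members without a window were not searched, namely Cct4, Dnajc2, Hsf1, Hsp90aa1, Hsp90ab1, Hspa8, Hspa9 and St13. An inverted pair was found in 17 of the 43, or 39.5%, against 15.1% of the 32851 windows of all genes. At least 3 alternating units were found in 7, or 16.3%, against 0.603%. These windows are not independent. The windows of Hsph1 overlap and hold the same letters, as do those of Dnajb6. Hspd1 and Hspe1 share the same element, and the promoters of Hspa1a and Hspa1b are nearly identical. By gene, 15 members held a pair and 5 held at least 3 alternating units, namely Hspd1, Hspe1, Hsph1, Chordc1 and Dnajb6. A pair was found for 1 of the 4 higher members, for 3 of the 9 lower members with a window and for 11 of the 20 uncalled members with a window. Among the 5 genes with at least 3 units, 2 fell (Hspd1 and Hspe1, which share the element) and 3 were not called. Such a match describes letters only, and a window without it may have an element elsewhere.

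**Figure D4:**
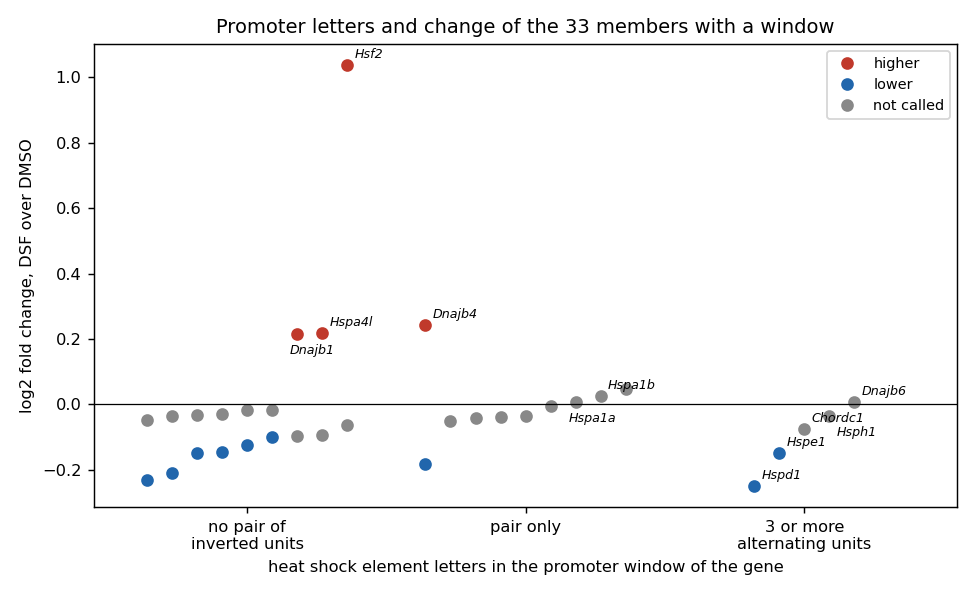
Log2 fold change of the 33 members with a promoter window, in 3 classes by the heat shock element letters found there; points are spread sideways within a class for legibility. Hsf2, Hspa4l and Dnajb1 lie in the class without a pair, and the class with 3 or more alternating units holds 2 lower and 3 uncalled genes.

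Other genes of the pathway were counted from lists of genes that are no members, and each count stands against 11.6% higher and 11.3% lower among all genes tested. Among 11 tested HSF factors, regulators and HSF1 targets, 5 rose and 0 fell, with the largest changes in Sqstm1, an autophagy receptor, at 1.30 times (adjusted p = 3.89e-11) and Dedd2 at 1.23 times (adjusted p = 1.20e-05). Among 13 other DNAJ genes 3 rose and 0 fell, led by Dnaja4 at 1.33 times (adjusted p = 0.00468) and Dnajb2 at 1.31 times (adjusted p = 0.00101).

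Among 17 other HSP90 cochaperones 4 rose and 3 fell, with Fnip1, a regulator of HSP90 and of AMPK signalling, at 1.26 times (adjusted p = 6.19e-06) and Ppid, cyclophilin 40, at 0.838 times (adjusted p = 2.63e-05). Among 14 other mitochondrial chaperones and proteases 0 rose and 2 fell, Dnajc11 at 0.846 times (adjusted p = 0.000191) and Grpel1, the nucleotide exchange factor of HSPA9, at 0.900 times (adjusted p = 0.0421). Of 8 other HSP70 system genes, 9 prefoldin and CCT helpers and the 2 of 9 small heat shock protein genes that passed the filter, none was called.

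Over these 7 lists together, 12 of 74 tested genes were higher, or 16.2%, and 5 were lower, or 6.76%, with a median log2 fold change of 0.02. Among all genes tested, 11.6% were higher and 11.3% lower. Among those of at least 10 CPM the shares were 14.7% and 15.5%, but the list genes were not limited to that level. The share of higher genes in the lists lay above 11.6% and that of lower genes below 11.3%, and neither difference was tested. For comparison, of 17 chaperones of the endoplasmic reticulum 1 was higher and 4 were lower, led by Hyou1 at 0.883 times (adjusted p = 0.00108) and Dnajc3 at 0.890 times (adjusted p = 0.00369), with a median of -0.06. No test compared the lists with each other or with the members.

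In the authors' deposited table, 3 members were higher and 11 lower at an adjusted p under 0.05. All 14 were called in the same direction here. Dnajb4 alone was called here and not there, with an adjusted p of 0.129 in the authors' deposited table.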

How the data were processed

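RNA of 3 DMSO and 3 DSF libraries was sequenced, and the submitters' processing notes name the genome GRCm38 (mm10). Aligner, counter, annotation release and strand setting are stated in no label or header. Per the file headers, the deposited table holds estimated counts per gene and library and the authors' mean TPM per group, with the authors' log2 fold change and adjusted p-value, from DESeq2 by the table's title. Between 12.1% and 12.9% of the values per library were not whole, so counts were rounded. Columns were taken as DMSO or DSF by reading the codes DO and DF as those names, which no label states. The deposited log2 fold change had the sign of the columns taken as DSF over those taken as DMSO in 14235 of 14314 tested genes. That gives the direction of the deposited fold and cannot show which columns are of cells that received DSF. The 6 TPM columns per library were left out, although the count columns, no more tied to labelled replicates, were used per library. Family sums in TPM are therefore of the authors' means, without a spread. A second table of further comparisons was not used.

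Counts were scaled by TMM (factors 0.9952 to 1.005), filtered with filterByExpr and tested with edgeR 4.0.16 in R 4.3.3 (robust quasi-likelihood F test, Benjamini-Hochberg over 14318 genes, adjusted p under 0.05). Standard errors were taken as the log2 fold change divided by the square root of F, and are approximate. The common biological coefficient of variation was 4.44%. CPM are TMM-scaled and levels between genes are compared in the authors' mean TPM only. 1 count was worth 0.04549 to 0.05542 CPM. The fit was tested on simulated data. No label says that replicates came from separate animals or cultures, so p-values measure only the spread between these libraries. Replicates of a group differed by more than sampling noise (chi-square per degree of freedom 2.21 to 4.27).

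Shared 31-base words were counted between the longest annotated transcript of a member and all others, and 7 members share at least 20% with another gene. Exons of 12 members overlap another gene on the opposite strand. Of 41 members, 8 had no promoter window. Values in every library were given for called members and for Hspa1a, Hspa1b, Hspa8, Hsp90aa1, Hsp90ab1, Hspd1, Hspe1, Dnajb1, Hsf1 and Hsf2. In the other lists the 2 called genes with the largest change were named. A further called gene is counted but not reported here by name. Members and lists were chosen with earlier results of these data known.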

Additional observations from a re-analysis of the deposited data

How the results depend on the processing

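The members were refitted under 12 alternatives: RLE size factors, DESeq2 1.42.0, both other filters, no rounding, a replicate block and each library left out. Of the 15 called members, 9 kept the call under all 12 (Bag1, Cct3, Cct6a, Dnajb1, Fkbp5, Hsf2, Hspa4l, Hspa9 and Hspd1), 6 lost it without at least 1 library, and 0 changed sign. No uncalled member gained a call. Leaving out 1 library gave 7 to 11 lower members, the lowest without DSF library 2, and 3 to 4 higher. DESeq2 gave 3 higher and 11 lower. Over all genes, leaving out 1 library gave 1334 to 1595 higher and 1231 to 1432 lower, and DESeq2 gave 1215 and 1111. The median over all genes shifted by at most 0.00536 (log2). Requiring at least 3 alternating units in place of a pair left 5 of 15 members with promoter letters. The summed level of all members was 0.9837 times the DMSO level in TPM and 0.9715 in CPM. Those of the cytosolic DNAJ genes were 1.022 times in TPM and 0.9919 in CPM, and of the cochaperones 1.009 and 0.9783. Same-numbered libraries deviated with correlations of -0.0375, -0.0238 and -0.0548 over 10210 genes, and no library correlated best with its own number, so the numbers were not taken to pair them. The highest correlations were between different numbers, 0.102 for DMSO 1 with DSF 3, 0.0906 for DMSO 3 with DSF 2 and 0.0897 for DMSO 2 with DSF 1, and no such pairing was fitted. With the replicate block, 4 members were higher and 11 lower, and 1925 and 1904 of all genes.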

Other observations

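The inducible gene Hsp90aa1 was among the members that differed between scales. By the authors' mean TPM its level was 395 with DMSO and 366 with DSF, while in CPM its groups overlapped and its fold change was 0.985. Such a difference was not particular to Hsp90aa1. Cdc37 was at 100.3 TPM with DMSO and 107.0 TPM with DSF, beside a fold of 0.966 in the test. Chordc1 was at 55.2 and 56.1 TPM, beside a fold of 0.948. The Hsp90ab1 level was 4.37 times the Hsp90aa1 level with DMSO and 4.82 times with DSF on the TPM scale. The Hspd1 level was 0.654 times the Hspe1 level with DMSO and 0.615 times with DSF. These are ratios of group means without a spread, and no test was run on them.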
